A study of Homo sapiens with 8 samples.

Results

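The genes described here encode the proteasome, its assembly chaperones and its activators and inhibitors, and their transcripts were measured by RNA-seq in HepG2 cells, an established human hepatocellular carcinoma line. Members were the protein-coding genes whose symbol is PSMA, PSMB, PSMC, PSMD, PSME, PSMF or PSMG followed by a number. There were 48 such genes, and 46 of them had at least 10 counts in at least 2 libraries and were tested among 13943 genes. The 2 that were not tested were PSMA8, an alpha subunit of the germ line with 0 counts in all libraries, and PSMB11, the thymus-specific catalytic subunit, with at most 1 count. They were sorted by role into the constitutive 20S core (14 tested genes), the 19S cap (17), assembly chaperones (7), the immunoproteasome group (5) and other regulators (3).

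The comparison addressed how culture geometry alters gene expression. In both arms the cells were of wild-type genotype, came from the same commercial stock, were cultured for 8 days in the same serum-supplemented medium and were liberated with trypsin. The 4 2D-primed libraries came from cells grown on flat plastic, and the 4 3D-primed libraries from cells grown on a porous polystyrene membrane. Seeding density also differed between the arms, so its effect and that of geometry cannot be told apart, and HepG2 is a single tumour-derived line. Library totals were 21599630 to 25019499 counts in 2D-primed cells and 22153063 to 27844077 in 3D-primed cells. The labels do not say whether the 4 replicates of an arm were separate cultures, so the p-values measure the spread between these libraries. All 6 hepatocyte markers examined were present, with ALB (albumin) at 26391 ± 1398 CPM (counts scaled to the depth of each library by TMM) in 2D-primed cells and 44035 ± 3511 in 3D-primed cells (mean ± SD, n = 4 each), and 5 of the 6 rose while SERPINA1 fell.

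The proteasome degrades proteins that carry ubiquitin chains. Its barrel-shaped 20S core is built from rings of alpha and beta subunits, and the beta subunits PSMB5, PSMB6 and PSMB7 hold the active sites. The 19S cap binds ubiquitin chains, removes them, and uses a ring of ATPases (PSMC1 to PSMC6) to unfold the substrate and thread it into the core. In cells exposed to interferon, PSMB8, PSMB9 and PSMB10 replace the constitutive active subunits, and PSME1 and PSME2 form the PA28 activator, which together favour the production of peptides for MHC class I. Chaperones guide assembly, and the transcription factor NFE2L1 drives proteasome genes when proteasome capacity falls short.

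Proteasome genes shifted by small amounts and in both directions between the cultures, with more of them higher after 3D priming. By edgeR's quasi-likelihood test with Benjamini-Hochberg adjustment over all tested genes (adjusted p below 0.05), 24 of 46 members were higher in 3D-primed cells, 9 were lower and 13 did not pass. The higher count includes PSMB9, which met the count minimum only through libraries of the 3D-primed arm. The background over all tested genes was 63.9% called, made up of 32.4% higher and 31.6% lower. The members' median log2 fold change (3D-primed over 2D-primed) was 0.17 (0.06 with a transcript length and GC trend removed), beside 0.01 over all tested genes. Size was limited: 30 of the 31 core and cap genes lay within 0.5 on the log2 scale, and 44 of all 46 members within 1, whereas 13.0% of all tested genes changed by 1 or more. The split of the calls depended on scaling. With upper-quartile scaling it was 26 higher and 5 lower, and after removal of the length and GC trend it was 18 higher and 15 lower.

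**Figure D1:**
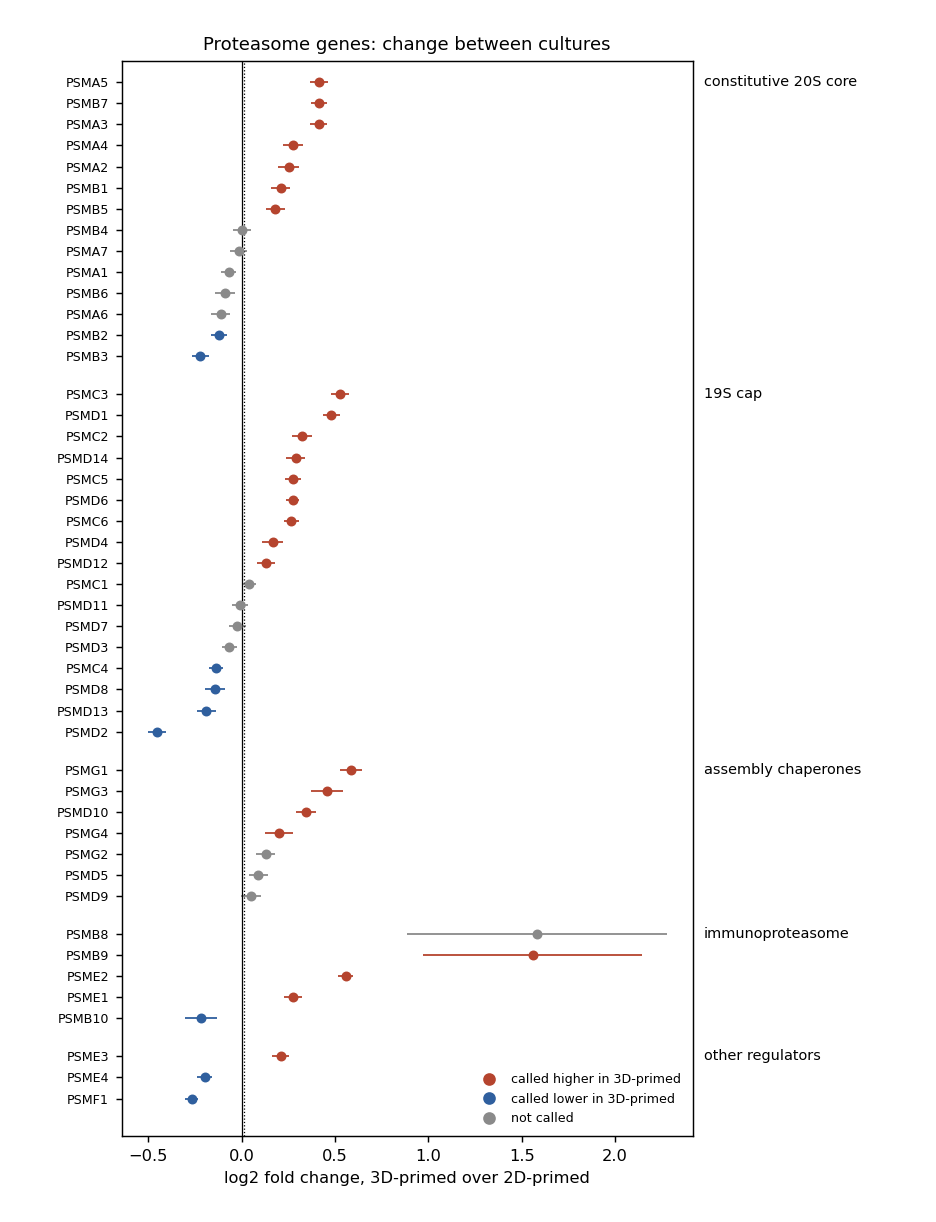
Log2 fold change (3D-primed over 2D-primed) of the 46 tested proteasome genes, grouped by role and sorted within each group. Points are edgeR estimates from 4 libraries per arm, bars are ± 1 SE, colours give the call, the solid line is 0 and the dotted line is the median of all tested genes (0.01); core and cap genes lie between -0.45 and 0.53, and PSMB8 and PSMB9 have by far the widest bars.

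Promoter sequences from RefSeq (GRCh38.p14) were searched for 3 elements known from the control of proteasome and immunoproteasome genes. The window reached from 250 bases before to 50 bases after each annotated start, and 40 of the 46 members had at least 1 such promoter. The motifs, searched on both strands, were TGACNNNGC, the core of the antioxidant response element that NFE2L1 and its relatives bind, CCAAT, the box bound by NF-Y, and GAAA followed by any 2 bases and GAAA, the core of the interferon-stimulated response element (ISRE). TGACNNNGC was found in 30.6% of 49 member promoters, against 13.3% of 35116 promoters in the table. CCAAT was found in 38.8%, against 34.6%, and the ISRE core in 14.3%, against 3.57%. The sequences below carry these motifs in members called higher (PSMC3, PSMA5, PSMA3, PSMG1 and PSME2) and lower (PSMB3 and PSME4). They run 5′ to 3′ on the gene's strand, lie upstream of the start, and have the motif in capitals, as its reverse complement where the capitals do not spell it.
PSMC3, CCAAT, chr11:47426534-47426568, minus strand: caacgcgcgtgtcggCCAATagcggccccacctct
PSMA5, CCAAT, chr1:109426512-109426546, minus strand: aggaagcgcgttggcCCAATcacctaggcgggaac
PSMA3, CCAAT, chr14:58244793-58244827, plus strand: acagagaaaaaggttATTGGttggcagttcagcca
PSMG1, TGACNNNGC, chr21:39183611-39183649, minus strand: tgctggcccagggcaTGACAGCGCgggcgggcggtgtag
PSMB3, TGACNNNGC, chr17:38752622-38752660, plus strand: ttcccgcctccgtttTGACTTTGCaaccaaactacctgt
PSME4, TGACNNNGC, chr2:53971004-53971042, minus strand: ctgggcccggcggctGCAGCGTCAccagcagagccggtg
PSME2, ISRE core, chr14:24146614-24146653, minus strand: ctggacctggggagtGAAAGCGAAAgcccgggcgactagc

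By direction, CCAAT stood in the promoters of 14 of the 20 members that were called higher and had a promoter, in 3 of the 9 that fell and in 2 of the 11 that were not called, beside 45.6%, 40% and 43.6% of all tested genes with a promoter in those classes. TGACNNNGC was found in 8 of 20 called higher, 3 of 9 that fell and 4 of 11 that were not called, beside 19.2%, 20.8% and 18.4%. Both of the counts for members called higher include PSMB9, which met the count minimum only through 3D-primed libraries. The ISRE core was found in 7 members, namely PSMA4, PSMB4, PSMG4, PSMB8, PSMB10, PSME1 and PSME2, 4 of which belong to the immunoproteasome group. A match describes letters in a window and is not a binding site, and no test was made on these shares.

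In the 20S core, 7 of 14 genes rose, 2 fell and 5 were not called, and the median log2 fold change was 0.09. The called share of 64.3% was near the 63.9% of all tested genes (32.4% higher and 31.6% lower). With the length and GC trend removed, the counts were 5 higher and 7 lower and the median was -0.02. The alpha ring, which gates entry to the barrel, accounted for most of the rises: PSMA2, PSMA3, PSMA4 and PSMA5 rose, by 0.25 to 0.41, and none of the 7 alpha genes fell by this test. PSMA5 had 77.9, 75.0, 79.6 and 80.3 CPM in the 2D-primed libraries and 109, 109, 97.6 and 101 in the 3D-primed libraries. Every 3D-primed library lay above every 2D-primed library, and the log2 fold change was 0.41 ± 0.05 (SE; adjusted p = 2.5e-05). PSMA6, the lowest of the ring by fold change, had 263, 275, 293 and 276 CPM against 275, 262, 243 and 245. Its groups overlapped, and the log2 fold change was -0.11 ± 0.05 (adjusted p = 0.081). PSMA1 and PSMA7 were likewise not called, at -0.07 and -0.02. Without 3D replicate 1, PSMA6 and PSMA1 were called lower (-0.15 and -0.11, adjusted p = 0.021 and 0.024), and DESeq2 called PSMA6 lower (adjusted p = 0.038). With the length and GC trend removed, PSMA1, PSMA6 and PSMA7 were called lower (-0.26, -0.28 and -0.11) and PSMA2 lost its call, while PSMA3, PSMA4 and PSMA5 were still called higher (0.23, 0.23 and 0.32).

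Of the 3 constitutive catalytic subunits, PSMB7 and PSMB5 rose and PSMB6 did not pass the test. PSMB7, which cleaves after basic residues (chr9:124353465-124415444), had 78.5, 80.1, 81.2 and 83.0 CPM in 2D-primed cells and 113, 110.4, 101 and 106 in 3D-primed cells. The groups stood apart, and the log2 fold change was 0.41 ± 0.04 (adjusted p = 1.2e-05). PSMB5, the chymotrypsin-like subunit and the target of bortezomib (chr14:23016543-23035230), had 249.7, 244, 247 and 249 CPM against 297, 296, 256 and 270.3. All 3D-primed libraries were again above all 2D-primed libraries, but 3D replicate 3 was close to them, and the log2 fold change was 0.18 ± 0.05 (adjusted p = 0.010). PSMB6, the caspase-like subunit (chr17:4796144-4798502), had 76.9, 79.9, 80.7 and 78.3 CPM against 81.0, 74.9, 67.7 and 73.1. Here the groups overlapped, and the log2 fold change was -0.09 ± 0.05 (adjusted p = 0.16), although PSMB6 was called lower without 3D replicate 1 (-0.14, adjusted p = 0.018). With the length and GC trend removed, PSMB5 lost its call (0.08, adjusted p = 0.097), while PSMB6 was called lower (-0.16, adjusted p = 0.0046).

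The 4 beta subunits without an active site went in different directions. PSMB1 was the only riser among them, with 144, 143, 145 and 150.2 CPM in 2D-primed cells and 183, 168, 156 and 166 in 3D-primed cells. Its groups did not overlap, and the log2 fold change was 0.21 ± 0.05 (adjusted p = 0.0037). PSMB3 fell from 90.0, 98.2, 98.2 and 97.8 CPM to 87.3, 80.8, 82.2 and 79.1. The arms stood apart although 2D replicate 1 lay well under its 3 counterparts, and the log2 fold change was -0.22 ± 0.05 (adjusted p = 0.0015). PSMB2 was also called lower, at -0.12 (adjusted p = 0.032), with overlapping groups. That call was lost in 9 of 18 alternatives, among them the omission of 2D replicate 1, 2 or 3 or 3D replicate 2 or 4. PSMB4 was at 0.00 ± 0.05 (adjusted p = 0.98). Once the length and GC trend was removed, PSMB1 was at 0.09 (adjusted p = 0.041) and PSMB4 was called lower (-0.09, adjusted p = 0.045).

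In the 19S cap, 9 of 17 genes rose, 4 fell and 4 were not called. The called share was 76.5%, beside 63.9% of all tested genes (32.4% higher and 31.6% lower). The ATPase ring had the most rises: PSMC2, PSMC3, PSMC5 and PSMC6 rose, by 0.27 to 0.53, PSMC4 fell and PSMC1 was not called. After removal of the length and GC trend, PSMC6 lost its call (0.07, adjusted p = 0.11) and PSMC2 and PSMC5 were smaller (0.19 and 0.17), while PSMC4 was lower still (-0.22). PSMC3 (chr11:47418769-47426473) had the largest rise of any core or cap gene, with 68.1, 71.7, 70.1 and 71.3 CPM against 108, 103, 93.4 and 101. The 3D-primed libraries were far above the others, and the log2 fold change was 0.53 ± 0.05 (adjusted p = 5.3e-06). PSMC4 had 87.0, 86.7, 87.6 and 87.6 CPM against 82.5, 81.2, 76.5 and 77.1. Its 2D-primed libraries hardly differed from one another and all lay above the 3D-primed libraries, with a log2 fold change of -0.14 ± 0.04 (adjusted p = 0.0080). PSMC1, at 0.04 ± 0.04 (adjusted p = 0.39), is uncertain because reads may be split between it and a processed pseudogene copy, PSMC1P1. That copy held 95, 100, 193 and 123 counts in 2D-primed libraries against 319, 215, 143 and 368 in 3D-primed libraries. It was itself called higher (0.92, adjusted p = 0.021), and how reads divide between the 2 was not tested. Of 44 pseudogene or non-coding symbols with these prefixes, PSMC1P1 alone passed the count minimum.

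The 2 scaffold subunits of the cap, PSMD1 and PSMD2, changed in opposite directions. PSMD1, the scaffold on which the ubiquitin receptor ADRM1 docks (chr2:231056845-231173116), had 89.9, 94.6, 85.1 and 91.9 CPM in 2D-primed cells and 130.5, 125, 119 and 131 in 3D-primed cells. No library of one arm reached the other, and the log2 fold change was 0.48 ± 0.05 (adjusted p = 8.9e-06). PSMD2, the related scaffold that binds shuttle factors and the deubiquitinase USP14 (chr3:184299198-184309050), had 216, 219, 224 and 221 CPM against 167, 173, 150.9 and 152. It stood apart in the other direction, with a log2 fold change of -0.45 ± 0.05 (adjusted p = 1.9e-05), the largest fall of any member. The ubiquitin receptor PSMD4 rose by 0.17 (adjusted p = 0.026), a call lost without 2D replicate 1 or 4 or 3D replicate 1 or 2. With the length and GC trend removed, PSMD1 and PSMD2 were at 0.43 and -0.46, and PSMD4 was no longer called (0.06, adjusted p = 0.31).

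The lid, the part of the cap that cleaves ubiquitin chains off the substrate, was mixed. PSMD6, PSMD12 and PSMD14 rose, PSMD8 and PSMD13 fell, and PSMD3, PSMD7 and PSMD11 were not called, at -0.07 to -0.01. The called share of the lid was 62.5%, beside 63.9% of all tested genes. PSMD8 (-0.14, adjusted p = 0.037) lost its call in 10 of 18 alternatives, among them the omission of 2D or 3D replicate 2, 3 or 4, and PSMD12 (0.13, adjusted p = 0.036) in 7, among them the omission of 2D replicate 2, 3 or 4 or 3D replicate 1 or 4. Removing the length and GC trend left PSMD6 and PSMD14 smaller (0.11 and 0.12), PSMD12 not called (0.05) and PSMD7 called lower (-0.17, adjusted p = 0.0035). PSMD14, the metalloprotease that does the cleaving, had 62.6, 63.4, 65.6 and 65.8 CPM against 82.1, 83.5, 73.4 and 75.4. The arms did not overlap, and the log2 fold change was 0.29 ± 0.05 (adjusted p = 0.00043). PSMD13, a structural subunit, had 63.9, 67.0, 68.9 and 69.5 CPM against 65.0, 58.1, 57.6 and 55.5. Here 3D replicate 1 fell within the 2D-primed range, and the log2 fold change was -0.19 ± 0.05 (adjusted p = 0.0099).

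Assembly chaperones had no called fall: 4 of 7 rose and 3 were not called. The called share was 57.1%, beside 63.9% of all tested genes (32.4% higher and 31.6% lower). Their median log2 fold change was 0.20, or 0.12 with the length and GC trend removed. PSMG1, which with PSMG2 builds the alpha ring (chr21:39174769-39183488), had 27.2, 30.2, 27.1 and 27.7 CPM in 2D-primed cells and 44.3, 43.4, 38.1 and 42.7 in 3D-primed cells. The arms were widely separated, and the log2 fold change was 0.59 ± 0.06 (adjusted p = 9.0e-06). Its partner PSMG2 had 29.1, 29.3, 29.1 and 30.2 CPM against 32.9, 33.3, 29.0 and 33.4. Because 3D replicate 3 lay under all 2D-primed libraries, the groups overlapped, and the log2 fold change of 0.13 ± 0.05 did not pass (adjusted p = 0.053; 0.0049 without 3D replicate 3). Of the second pair, at mean levels of 8.84 and 10.7 CPM in 2D-primed cells, PSMG3 rose by 0.46 (adjusted p = 0.00080). PSMG4 was called higher by 0.20 (adjusted p = 0.041) with overlapping arms, and this call was lost in 14 of 18 alternatives (adjusted p = 0.050 to 0.16), among them the omission of any 2D replicate or of 3D replicate 1, 2 or 3.

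Among the base chaperones, which guide the ATPases onto the core, PSMD10 (gankyrin) rose, from 29.1, 28.7, 32.0 and 30.3 CPM to 40.1, 39.8, 35.2 and 37.6. The groups stood apart, and the log2 fold change was 0.35 ± 0.05 (adjusted p = 0.00027; 0.15 on the log2 scale with the trend removed). PSMD9 had 22.0, 23.5, 22.6 and 23.3 CPM against 25.0, 24.8, 22.9 and 21.9. It overlapped between arms and was not called (0.05 ± 0.05, adjusted p = 0.44), nor was PSMD5 (0.09, adjusted p = 0.15). POMP, the core maturation factor, which does not carry a PSM symbol, had 53.1, 51.1, 57.7 and 55.0 CPM against 53.8, 51.0, 47.0 and 50.1. It also overlapped and was not called, at -0.10 ± 0.05 (adjusted p = 0.10), but it was called lower without 3D replicate 1 (-0.14, adjusted p = 0.035) and with the length and GC trend removed (-0.38, adjusted p = 1.2e-05).

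The immunoproteasome group did not move as a unit. Of its 5 genes, PSME1 and PSME2 rose, PSMB9 was called higher, PSMB10 fell and PSMB8 was not called. The PSMB9 call carries no weight as support, since the gene met the count minimum only through 3D replicates 1 and 2, where it was high. Only PSME1 and PSME2 had arms that did not overlap. PSME2 (PA28 beta, chr14:24143362-24147570) had 89.1, 92.3, 84.0 and 90.6 CPM in 2D-primed cells and 131, 136, 126 and 131 in 3D-primed cells. Both arms were tight and far apart, and the log2 fold change was 0.56 ± 0.04 (adjusted p = 1.5e-06), the smallest adjusted p of any member. PSME1 (PA28 alpha), its neighbour at chr14:24136163-24138967, had 185, 184, 187 and 186 CPM against 238, 230.1, 204 and 224. The arms stood apart, and the log2 fold change was 0.27 ± 0.05 (adjusted p = 0.00055; 0.18 on the log2 scale with the length and GC trend removed). Per kilobase of transcript, PSME2 made up 36.9% ± 1.06 (SD, n = 4) of the summed level of the pair in 2D-primed cells and 41.6% ± 1.14 in 3D-primed cells, and no library of one arm overlapped the other.

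PSMB10, the inducible counterpart of PSMB7 (chr16:67934506-67936864), had 13.7, 14.7, 13.6 and 16.5 CPM against 14.1, 13.0, 11.5 and 11.8. The groups overlapped, the log2 fold change was -0.22 ± 0.09, and the call was marginal (adjusted p = 0.048; 0.016 to 0.14 over the alternatives, and lost when 2D replicate 2, 2D replicate 4 or 3D replicate 2, 3 or 4 was left out). Per kilobase, PSMB10 was 15.4% ± 0.954 of the PSMB10 and PSMB7 total in 2D-primed cells and 10.5% ± 0.482 in 3D-primed cells. In this share the arms did not overlap: the lowest 2D-primed library was at 14.5% and the highest 3D-primed library at 11.2%. The share also depends on PSMB7, whose own log2 fold change was 0.41 with arms apart, whereas the arms of PSMB10 alone overlapped. The part of each gene in the lower share was not tested.

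PSMB8 and PSMB9, which overlap at their ends on opposite strands in the MHC region of chromosome 6 (chr6:32840717-32844679 and chr6:32844136-32859851), could not be measured with the same precision. PSMB8 had 4.95, 1.34, 0.163 and 1.22 CPM in 2D-primed cells and 7.73, 8.90, 2.83 and 3.34 in 3D-primed cells. The 2D-primed libraries alone spanned 4 to 108 counts, the arms overlapped, and the log2 fold change of 1.58 ± 0.69 did not pass (adjusted p = 0.069). The fold change itself depended on single libraries, from 1.19 without 2D replicate 3 to 2.65 without 2D replicate 1 (adjusted p = 0.10 and 0.0047), and it also passed without 3D replicate 3 (adjusted p = 0.049), with limma-voom (adjusted p = 0.034) and with the replicate block (adjusted p = 0.0086). PSMB9 rested on 2, 2, 5 and 6 counts against 24, 13, 6 and 6, or 0.0916, 0.0864, 0.203 and 0.253 CPM against 0.905, 0.576, 0.215 and 0.238. Its arms overlapped, the log2 fold change was 1.56 ± 0.59 (adjusted p = 0.039), and the call was lost when 2D replicate 1, 2 or 3 was left out (adjusted p = 0.056 to 0.092), with limma-voom (adjusted p = 0.068) and with the replicate block (adjusted p = 0.10). Without 3D replicate 1 or 3D replicate 2, or with the filter of filterByExpr, it did not meet the count minimum and was not tested. The spread within arms was large for the whole neighbourhood: the median coefficient of variation was 43.0% over 74 tested genes of the MHC region (starts from 29887752 to 32968594 on chromosome 6), against 7.06% over all tested genes. PSMB8 had 81.3% and PSMB9 59.8%, whereas the other 44 members had 1.73% to 9.23%. The transcript set used for counting holds alternative copies of this region. Counts on such copies may stand under the 3055 gene identifiers that were not matched to a symbol (2.38% to 2.57% of the counts), so the levels of PSMB8 and PSMB9 may be too low, and the part of these copies in the levels and in the spread was not tested. With that limit, PSMB8 was 0.708% ± 0.760 of the PSMB8 and PSMB5 total per kilobase in 2D-primed cells and 1.81% ± 0.859 in 3D-primed cells.

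**Figure D2:**
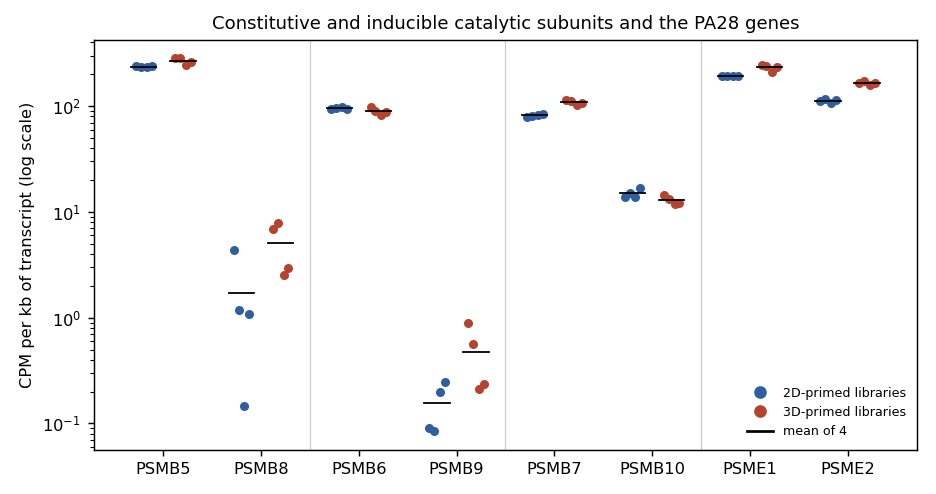
CPM per kilobase of transcript (log axis) of the constitutive catalytic subunits PSMB5, PSMB6 and PSMB7, each followed by its inducible counterpart, and of PSME1 and PSME2. Each point is 1 library, 4 per arm, and each black line is the mean of 4; PSMB8 and PSMB9, whose counts may be split with unmatched copies of their region, lie far under their constitutive counterparts as counted and scatter widely, while PSMB7 rises and PSMB10 is lower on average in 3D-primed cells.

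The 3 other regulators were all called, 1 higher and 2 lower, beside 63.9% of all tested genes called. PSME3 (PA28 gamma), the nuclear activator, had 111, 101, 101 and 100.5 CPM against 124, 121, 113 and 119.9. The arms did not overlap, although 2D replicate 1 was close to 3D replicate 3, and the log2 fold change was 0.21 ± 0.05 (adjusted p = 0.0023). PSME4 (PA200), an activator that opens the core without ATP, fell from 165, 161, 161 and 156 CPM to 132, 140.4, 141 and 146. All 2D-primed libraries lay above all 3D-primed libraries, with a log2 fold change of -0.20 ± 0.04 (adjusted p = 0.0014). PSMF1 (PI31), known as an inhibitor of the core in vitro and as an adaptor for proteasome transport (chr20:1113240-1189415), had 229, 238, 231 and 231 CPM against 199, 187, 191 and 196. Its arms were well apart, and the log2 fold change was -0.27 ± 0.03 (adjusted p = 7.3e-05). These 3 calls were kept when any single library was left out, and with the length and GC trend removed PSMF1 was at -0.13 (adjusted p = 0.020).

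Across the members, 26 of 46 had arms that did not overlap, 21 with 3D-primed above and 5 with 2D-primed above, beside a background of 59.8% in either direction (30.2% with 3D-primed above and 29.5% with 2D-primed above). The summed level of all members was 4086 ± 46.5 CPM in 2D-primed cells and 4313 ± 191 in 3D-primed cells, a ratio of 1.06. In the order of replicates 1 to 4, the 3D-primed sums were 4525, 4389, 4077 and 4260.4 CPM, and the third of these lay inside the 2D-primed range of 4022 to 4130. Core and cap sums overlapped between the arms in the same way. Chaperones summed to 148 ± 2.29 CPM under 2D priming against 179.9 ± 9.82 CPM under 3D priming. The immunoproteasome group summed to 291 ± 4.35 against 374 ± 21.8 CPM, nearly all of it from PSME1 and PSME2 (274.5 ± 2.78 against 355 ± 17.9 CPM). PSMB8, PSMB9 and PSMB10 together gave 16.7 ± 2.09 against 18.8 ± 4.43 CPM and overlapped between the arms. The other regulators summed to 496 ± 7.56 against 452 ± 7.56 CPM. The sums of these 3 classes did not overlap between the arms, and no test was made on them. Fewer cells that express a gene and less of its RNA per cell cannot be told apart in such bulk libraries.

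**Figure D3:**
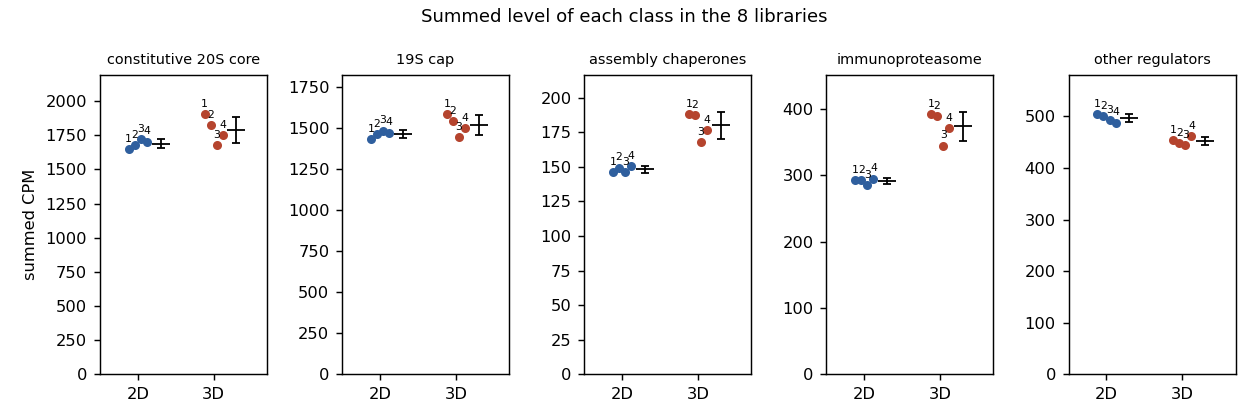
Summed CPM of each class in the 8 libraries, with the replicate number beside each point and the mean ± SD of 4 libraries in black at the right of each arm. Axes start at 0; the core and cap sums of 3D replicate 3 lie within the 2D-primed range, while the chaperone, immunoproteasome and other regulator sums of the arms do not overlap.

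The 3D-primed libraries differed among themselves in a shared way. Replicate 3 had the lowest level of the 3D-primed libraries for 34 of 46 members and the highest for 0, and replicate 1 had the highest for 32 and the lowest for 1. Over all tested genes, replicate 3 was lowest for 29.6% and highest for 28.4%, and replicate 1 was highest for 26.5% and lowest for 26.7%. In the 2D-primed arm no library was lowest for more than 16 members. Without 3D replicate 3 the calls were 25 higher and 7 lower, and without 3D replicate 1 they were 20 higher and 12 lower. What else set these libraries apart was not tested. Mitochondrial transcripts took 1.595% ± 0.194 of the counts in 2D-primed libraries and 2.66% ± 0.230 in 3D-primed libraries, at 2.67% in replicate 3 and 2.52% in replicate 1, and their part in the result was not tested.

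**Figure D4:**
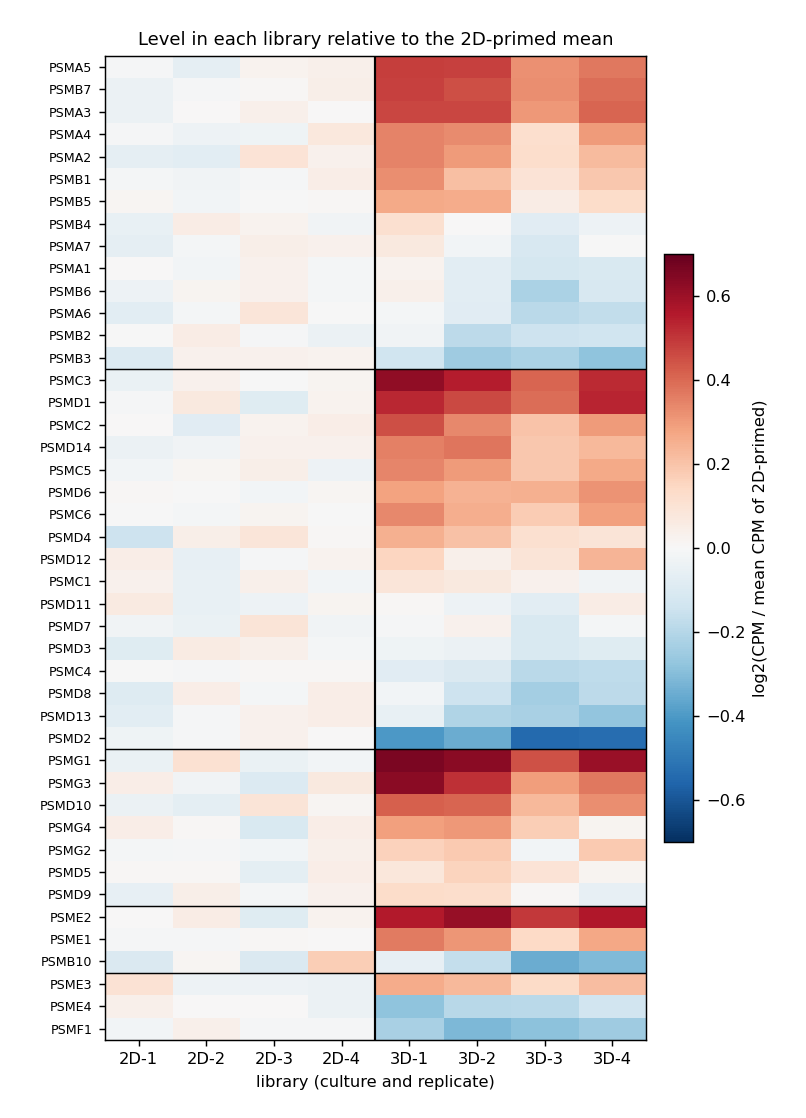
Level of 44 members in each of the 8 libraries as log2 of the CPM over the mean CPM of the 2D-primed libraries, from blue (lower) to red (higher), with the classes separated by lines in the order core, cap, chaperones, immunoproteasome, other regulators. PSMB8 and PSMB9 are left out for their spread; the column of 3D replicate 3 is paler than the other 3D-primed columns in most rows that rise.

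Levels per kilobase of the MANE Select transcript kept nearly the same order in both arms (Spearman's rho = 0.979 across 46 genes that share the libraries, a description). PSMA6, PSMB5, PSME1, PSMA7 and PSMB1 led in 2D-primed cells, at 271 ± 12.4, 237 ± 2.54, 192 ± 1.25, 191 ± 6.12 and 163 ± 3.62 CPM per kilobase. In that order PSME1 and PSMA7 did not differ beyond their spread. In 3D-primed cells PSMB5 (268 ± 19.1) and PSMA6 (250.5 ± 14.6) changed places, also within their spread, and PSME1 (232 ± 15.1) followed. Core genes, whose products stand in equal numbers in the barrel, spanned 17.8-fold from PSMA6 to PSMA4 (15.2 ± 0.555) in 2D-primed cells and 14.5-fold in 3D-primed cells. The lowest core levels, those of PSMA4, PSMA5 and PSMB2, belong to genes with long annotated transcripts, and such levels depend on which transcript is in use. At the lower end were the chaperones PSMD5 (5.39 ± 0.183) and PSMG3 (6.19 ± 0.321) and the inducible PSMB8 and PSMB9.

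Genes around the proteasome that do not carry a PSM symbol were examined in 4 lists. Of 11 attached subunits and assembly or import factors, 2 rose (UCHL5 and AKIRIN2), 4 fell (ADRM1, UBE3C, PITHD1 and USP14) and 5 were not called. The called share was 54.5%, beside 63.9% of all tested genes (32.4% higher and 31.6% lower). The median log2 fold change was -0.04. With total counts or upper-quartile scaling, 4 were called higher. ADRM1, the ubiquitin receptor of the cap that recruits UCHL5, had 102, 109, 111 and 111 CPM in 2D-primed cells and 85.0, 77.4, 77.3 and 79.2 in 3D-primed cells. The arms stood apart, and the log2 fold change was -0.44 ± 0.05 (adjusted p = 1.4e-05). UCHL5, the deubiquitinase that ADRM1 holds, went the other way, from 25.2, 23.9, 21.8 and 24.7 CPM to 29.7, 32.7, 30.8 and 29.0. Its arms did not overlap either, and the log2 fold change was 0.35 ± 0.06 (adjusted p = 0.00039). The proteasome-bound ligase UBE3C and PITHD1 fell by 0.24 and 0.45 on the log2 scale, both with separate arms.

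The list of NFE2L1 and the factors that process or partner it had 10 of 11 genes called, 3 higher and 7 lower. This share was 90.9%, beside 63.9% of all tested genes (32.4% higher and 31.6% lower). The median log2 fold change of the list was -0.48. NFE2L1 itself (NRF1) had 570.1, 599, 647 and 594 CPM in 2D-primed cells and 312, 315, 342 and 285 in 3D-primed cells. The lowest 2D-primed library was far above the highest 3D-primed library, and the log2 fold change was -0.94 ± 0.06 (adjusted p = 4.9e-07). Its relative NFE2L3 fell from 25.0, 27.0, 24.6 and 25.8 CPM to 11.7, 12.9, 12.5 and 13.98, again without overlap (-1.002 ± 0.06, adjusted p = 4.6e-07). MAFK, a small MAF protein that pairs with these factors on DNA, fell from 74.2, 94.7, 93.8 and 100.05 CPM to 27.0, 29.4, 39.3 and 27.5. This was the largest change of the list, -1.56 ± 0.13 (adjusted p = 2.7e-06), and MAFF, MAFG and NFE2L2 also fell.

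Among the enzymes that release and activate the NFE2L1 protein, DDI2, the protease that clips it, rose from 111, 108, 100.2 and 102 CPM to 144, 146, 152 and 148. Its arms were widely separated (0.49 ± 0.04, adjusted p = 4.2e-06). NGLY1, the glycanase that edits it, fell by 0.92 on the log2 scale. VCP and SYVN1, which extract and ubiquitinate it at the endoplasmic reticulum, rose by 0.32 and 0.29, and SEL1L was not called (0.01, adjusted p = 0.83). The mRNA level of NFE2L1 fell, 24 members were called higher and 9 lower, and its protein was not measured here.

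**Figure D5:**
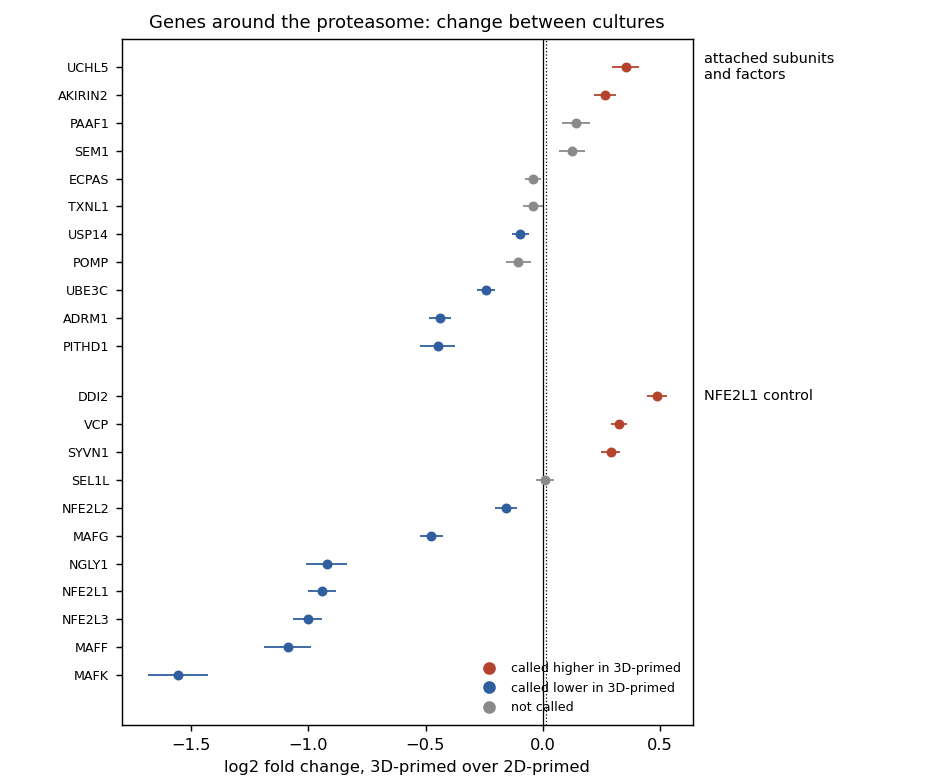
Log2 fold change (3D-primed over 2D-primed) of the attached subunits and factors and of the NFE2L1 list, 11 genes each, sorted within each list. Points are edgeR estimates from 4 libraries per arm, bars are ± 1 SE and colours give the call. The solid line is 0 and the dotted line the median of all tested genes. Called lower are 7 of 11 genes of the NFE2L1 list, beside 31.6% of all tested genes.

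Of 13 ubiquitin genes, activating enzymes and shuttle factors, 2 rose, 9 fell and 2 were not called. The called share was 84.6%, beside 63.9% of all tested genes (32.4% higher and 31.6% lower). In this list, 1 gene was called higher once the length and GC trend was removed. UBB, a polyubiquitin gene, had 566, 535, 539 and 537 CPM against 773, 774, 716 and 777. It rose with separate arms, by 0.48 ± 0.04 (adjusted p = 3.0e-06). RAD23B, which carries ubiquitinated proteins to the cap, had 272, 278, 285 and 279 CPM against 216, 216, 209 and 212. It fell with separate arms (-0.38 ± 0.03, adjusted p = 4.0e-06), as did ZFAND5 (-0.21), and the ubiquitin-activating enzymes UBA1 and UBA6 fell by 0.23 and 0.26.

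Of 14 class I presentation genes listed, 12 were tested, and 9 of these were not called. The called share was 25.0%, beside 63.9% of all tested genes, but low counts limit that comparison. Among the genes not called, TAP2 had 0 to 204 counts per library, TAPBP 0 to 28, HLA-E 0 to 14 and HLA-C 36 to 63. Changes in such genes could be missed. TAP1, the peptide transporter encoded beside PSMB9, had 4.77, 10.5, 6.80 and 6.41 CPM against 7.88, 8.37, 5.45 and 6.87. The arms overlapped throughout, and the log2 fold change was 0.00 ± 0.22 (adjusted p = 1.0). The trimming peptidase ERAP2 fell by 0.25 on the log2 scale, and NLRC5, the transactivator of class I genes, had 3.62 ± 0.399 against 4.42 ± 0.170 CPM. Its rise (0.29, adjusted p = 0.047) was marginal and lost in 11 of 18 alternatives (adjusted p = 0.052 to 0.13), among them DESeq2 and the omission of 2D replicate 2 or 3 or of any 3D replicate. The interferon-responsive factor IRF1 was not called (0.09, adjusted p = 0.49). TAP1 lies in the region of chromosome 6 with the large spread, and TAP2, TAPBP, HLA-C and HLA-E are on the same chromosome.

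Markers of other cell types were listed because the immunoproteasome is abundant in leukocytes. Of 6 leukocyte markers, PTPRC and CD3E, which define the lineage, had at most 2 counts, and the summed CPM of the 4 others was 2245 ± 40.3 under flat culture against 2681 ± 260.2 in 3D-primed libraries, nearly all of it LYZ (lysozyme, 2168 and 2642 CPM). CD14 was higher in 3D-primed cells and CD68 lower. Of 5 fibroblast markers, COL1A1 alone was tested, at 0.969 and 0.0703 CPM, and COL1A2, DCN, LUM and PDGFRA had at most 2 counts. The endothelial markers PECAM1, VWF and CDH5 summed to 6.87 ± 0.921 and 4.71 ± 0.711 CPM, but not in 1 direction: CDH5 fell (-1.56, adjusted p = 2.7e-05), VWF rose (0.62, adjusted p = 0.030) and PECAM1 was not called (0.46, adjusted p = 0.12). KDR had at most 1 count.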

How the data were processed

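Poly(A)-selected, directional RNA-seq libraries were quantified by the authors with Salmon against the Ensembl cDNA set of GRCh38 and summarised to genes with tximport. The deposited values are the authors' estimated counts (expected counts) per gene, already whole numbers, and the length setting of tximport is not given in the sources used here. Of 38032 gene identifiers, 34977 matched GENCODE release 44, from which symbols, coordinates (GRCh38) and MANE Select lengths were taken. The 3055 others held 2.38% to 2.57% of the counts and remained in the fit.

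The count minimum was 10, in 2 or more libraries. edgeR 4.0.16 (TMM scaling, quasi-likelihood fit and test, R 4.3.3) compared 4 3D-primed with 4 2D-primed libraries without covariates, with Benjamini-Hochberg adjustment over 13943 genes. The SE is the absolute log2 fold change over the square root of F. CPM are TMM-scaled. The script was tested on simulated data. The biological coefficient of variation was 0.0934. No 2 libraries of an arm agreed within sampling noise (chi-square per degree of freedom 6.32 to 17.4).

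Alternatives were DESeq2 1.42.0, limma-voom 3.58.1, other scalings and count filters, a replicate block, each library left out, and offsets that remove a lowess trend on transcript length and GC content. Values in every library are given for PSMB5, PSMB6 and PSMB7, the immunoproteasome genes, the other regulators, and the highest and lowest fold change of each subgroup. Outside the PSM symbols, the 4 smallest p-values of each list were named, with NFE2L1, POMP and TAP1. Some genes of these lists are not reported here. Genes named beyond these complete the counts of a list or show its limits. PSMC3IP and PSME3IP1, with letters after the number, were left out. Members and lists were chosen with earlier results of these data known.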

Additional observations from a re-analysis of the deposited data

Results flagged for a closer look

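In groups of 4 libraries, a sample was marked where its gap to the nearest other library exceeded Dixon's 95% critical share of the range. Among 140 groups checked, 6 were marked, and chance marks about 1 in 20. PSMB3 in 2D replicate 1 was at 90.0 CPM, with the other 3 libraries at 97.8 to 98.2. PSMD7 in 2D replicate 3 was at 114.0 CPM, with the others at 104 to 105. PSMG2 in 3D replicate 3 was at 29.0 CPM, with the others at 32.9 to 33.4. PSME3 in 2D replicate 1 was at 110.8 CPM, with the others at 100.5 to 100.9. UBB in 2D replicate 1 was at 565.6 CPM, with the others at 535 to 539, and in 3D replicate 3 at 715.7 CPM, with the others at 773 to 777.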

How the results depend on the processing

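Over 18 alternatives, 8 of which leave out 1 library, 25 of 46 members kept their direction and call. Direction reversed at least once for 5 members that were not called (PSMA7, PSMB4, PSMD7, PSMD11 and PSMG2), of which PSMB4 was then called lower with the length and GC trend removed (adjusted p = 0.045), and 11 called members (PSMA2, PSMB2, PSMB5, PSMB9, PSMB10, PSMC4, PSMC6, PSMD4, PSMD8, PSMD12 and PSMG4) lost the call at least once. The other 5, PSMA1, PSMA6, PSMB6, PSMB8 and PSMD5, gained a call at least once, PSMD5 with upper quartile (0.14, adjusted p = 0.038). The numbers of genes called lower were the least stable. PSMB10, the sole immunoproteasome call in that direction, was lost with DESeq2, total counts, upper quartile, no filter and the replicate block (0 lower). The core count of 2 lower was 1 with total counts, upper quartile, no filter and the replicate block. Upper-quartile scaling gave 5 members lower, 2 of them in the cap, and medians of 0.18 for the cap and -0.15 for the other regulators, whose median was -0.17 with total counts. With the length and GC trend removed, 15 members were lower, 7 of them in the core, and the medians were 0.0606 for all members, -0.0236 for the core, 0.0589 for the cap, 0.121 for the chaperones and -0.13 for the other regulators. With 1 library left out, members called lower ranged from 6 to 12, core genes lower from 1 to 5, immunoproteasome genes lower from 0 to 1 and immunoproteasome genes higher from 2 to 4. The core count reached 5 without 3D replicate 1. The cause was not tested. The replicate block left 28 members called (22 higher and 6 lower) and 8490 genes in all. Same-numbered libraries deviated together inconsistently (correlations of 0.13, -0.13, 0.25 and -0.01 over 8991 genes). Differently numbered libraries ranged from -0.33 to 0.32, so correlations of this size cannot decide whether equal numbers mark paired cultures. The labels do not say so either.

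Reversals among genes at or near 0 were as follows, on the log2 scale. PSMB4 was at -0.0084 with DESeq2, -0.0083 with median-of-ratios size factors, -0.0055 with filterByExpr, -0.0048 with 10 counts in all libraries, -0.0895 with the trend removed and -0.0434 to 0.0207 with 1 library left out. With total counts and upper quartile, PSMA7 was at 0.0125 and 0.0344, PSMD7 at 0.0058 and 0.0276, PSMD11 at 0.0172 and 0.0392 and TAP1 at 0.031 and 0.0514. With 1 library left out, PSMA7 ranged from -0.0514 to 0.0079, PSMD7 from -0.0472 to 0.0080 and PSMD11 from -0.0321 to 0.0109. PSMG2 was at -0.0576 with the trend removed. TAP1 was at 0.0232 with limma-voom, 0.0036 with no filter, 0.0330 with the replicate block, 0.0215 with the trend removed and -0.15 to 0.248 with 1 library left out. PSMB8 passed with limma-voom (adjusted p = 0.034) and with the replicate block (adjusted p = 0.0086). PSMG2 was called higher with total counts (adjusted p = 0.033), upper quartile (0.011) and without 3D replicate 3. Counts limit what can be said of PSMB9, which had 2 to 24 per library, and the sources of its spread were not told apart.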
